A study of Homo sapiens with 12 samples.

Results

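The 50 genes described here drive or mark passage through the cell cycle. They were chosen by name as a fixed list and matched by symbol to the gene column of 6 peak lists, and a gene absent from a list counts as 0 peaks. Of the 50, 37 carried at least 1 peak in any list, among 10870 genes with a peak in all. The peaks come from acetylated RNA immunoprecipitation sequencing of HaCaT cells, a spontaneously immortalised line of human keratinocytes. In this assay an antibody pulls down RNA that carries N4-acetylcytidine (ac4C), and a peak is a stretch of transcript with more reads in the pulled-down library (IP) than in the background. The control group held 3 replicates of cells given an empty vector, and the overexpression group held 3 replicates of cells given NAT10 overexpression plasmids. The acetyltransferase NAT10 makes this mark. Each replicate had an input and an IP library and has 1 deposited list, named here C1, C2 and C3 for control and OE1, OE2 and OE3 for overexpression. The labels do not say how the plasmids were delivered, whether single clones were grown or whether replicates were separate cultures, so the spread between replicates may be technical.

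Cells pass from G1 into S phase when D-type cyclins with CDK4 or CDK6, and then cyclin E with CDK2, inactivate the retinoblastoma protein and free the E2F transcription factors. E2F factors switch on genes that license replication origins, unwind DNA and supply nucleotides. A second set of genes, read mostly in G2 and mitosis, builds the spindle, attaches chromosomes to it and times their separation. The 50 genes were accordingly divided into 11 G1/S genes, 12 replication genes and 27 mitotic genes. In the epidermis these genes are active in the dividing basal layer, and HaCaT cells divide continuously in culture.

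The lists differed widely in length, from 3105 peaks in OE3 to 19261 in C2, and these lists stood at the ends of the range for the cell cycle genes too. Genes with a peak ranged from 2306 to 7919 per list. NAT10 had 1, 2 and 2 peaks in C1, C2 and C3 and 14, 14 and 15 in OE1, OE2 and OE3. All 8 keratinocyte markers examined had a peak in some list, as had 3 of 6 markers of melanocytes, 2 of 6 of fibroblasts, 3 of 5 of endothelium and 1 of 5 of immune cells. The lists hold no read counts, so depth is unknown. The authors' false discovery rate, read as percent, was 29.28 or higher for every peak, and its lowest value was 100 in C1 and in OE3. A gene without a peak is a gene not called at the depth of that list, and not one shown to lack the RNA or its acetylation.

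Across the 3 functional groups, 6 of 9 G1/S and 5 of 9 replication genes with a peak were called in 4 lists or more, against 3 of 19 mitotic genes and 35.3% of all genes with a peak. Of the 19 mitotic genes with a peak, 7 had theirs in the longest list alone, as did 12.7% of all genes. The cell cycle genes held 162 peaks, of which 38.3% lay in C2, which held 31.2% of all peaks. Genes of the list with a peak numbered 10, 35 and 21 in C1, C2 and C3 and 18, 18 and 3 in OE1, OE2 and OE3 (22.0 ± 12.5 against 13.0 ± 8.66, SD, n = 3 per group). The groups overlap, because C1 lies below OE1 and OE2. As a share of the 37 genes with a peak, these counts come to 27.03%, 94.6% and 56.8% in the control lists and 48.6%, 48.6% and 8.11% in the overexpression lists. Over all 10870 genes the shares were 28.9%, 72.9% and 54.8% in control and 53.3%, 54.7% and 21.2% in overexpression. The cell cycle share was the higher one in C2 and C3 and the lower one in the other 4 lists. Per 1000 peaks of the list, peaks on cell cycle genes numbered 3.01, 3.22 and 2.58 in C1, C2 and C3 and 2.30, 2.15 and 1.61 in OE1, OE2 and OE3 (2.94 ± 0.323 against 2.02 ± 0.363, SD, n = 3 per group). On that scale the lowest control list lies above the highest overexpression list. Leaving out any list cannot undo such a separation, so doing so is no check of it. The values for C1 and OE3 rest on 13 and 5 peaks. How often other gene sets separate on this scale was not examined. The value was given no test because it sums over genes chosen with earlier results known.

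**Figure D1:**
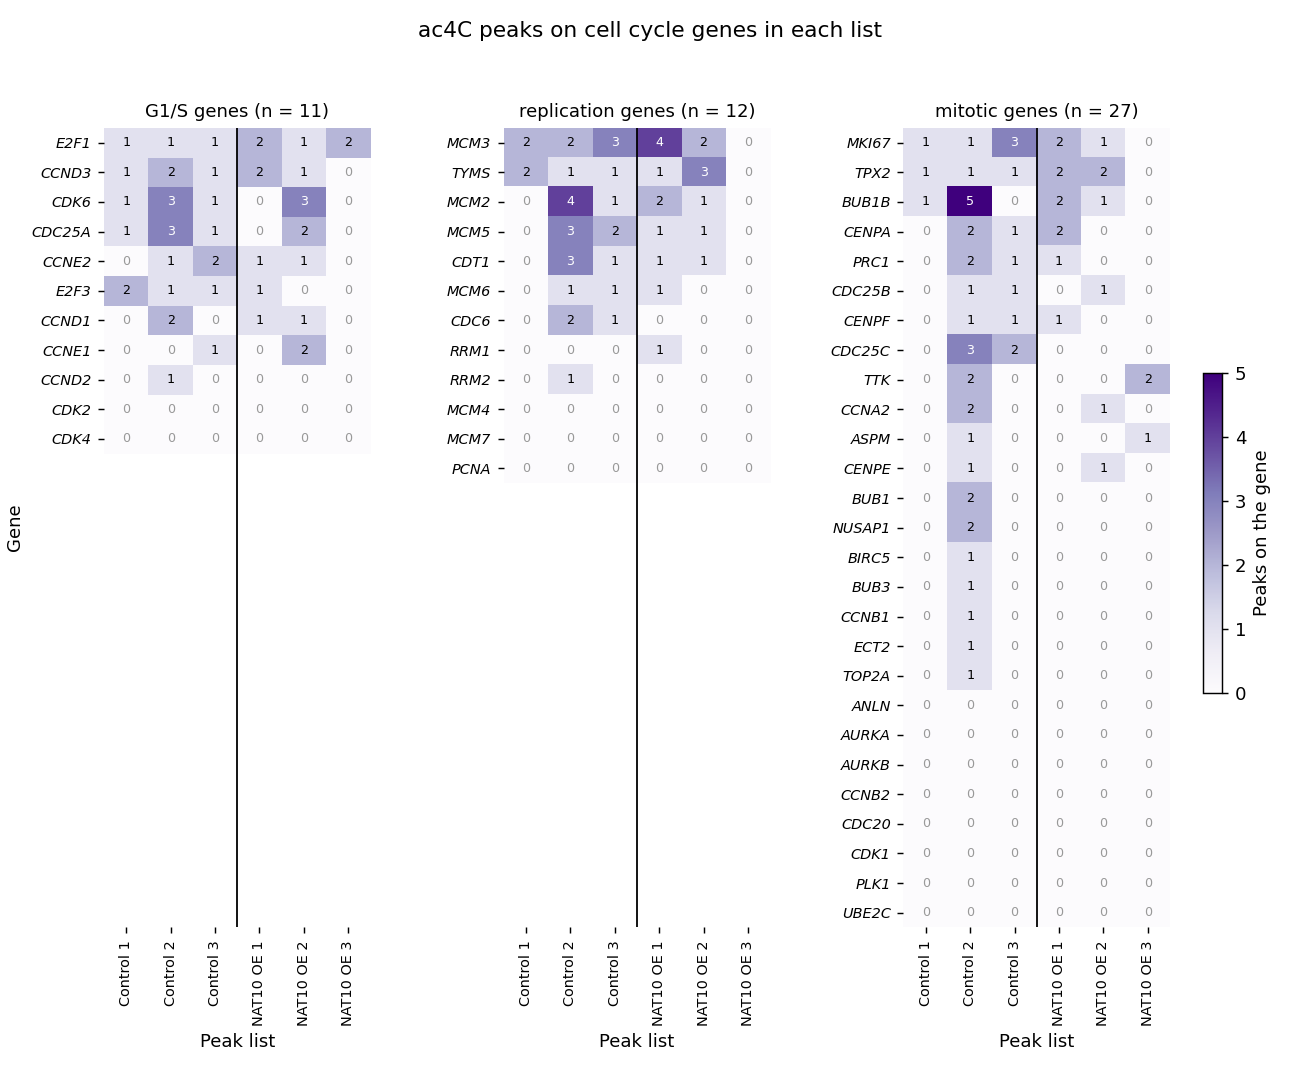
Number of ac4C peaks on each of the 50 genes (rows, sorted within each functional group by the number of lists with a peak) in the 6 lists (columns, with control left and NAT10 overexpression, OE, right of the line). E2F1 has a peak in all 6 lists, 7 mitotic genes have one in C2 alone, and 13 genes have none.

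G1/S genes had a peak in 45.5%, 72.7% and 63.6% of their 11 members in C1, C2 and C3 and in 45.5%, 63.6% and 9.09% in OE1, OE2 and OE3 (60.6% ± 13.9 against 39.4% ± 27.8, SD, n = 3 per group). Replication genes had 16.7%, 66.7% and 58.3% of 12 in control and 58.3%, 41.7% and 0.0% in overexpression (47.2% ± 26.8 against 33.3% ± 30.05). A share of 0 of 12 in OE3 is a count of genes not called in the shortest list. Mitotic genes had 11.1%, 70.4% and 25.9% of 27 in control and 22.2%, 22.2% and 7.41% in overexpression (35.8% ± 30.8 against 17.3% ± 8.55). In each functional group the difference between group means was below the larger SD, and the ranges of the 2 groups overlap. All 19 mitotic genes with a peak had one in C2. Without OE3, the replication genes had a higher mean in overexpression, by 2.78 percentage points. With each list trimmed to its 3105 highest-scoring peaks, the differences, overexpression minus control, were −12.1, −2.78 and −3.70 points for G1/S, replication and mitotic genes. Without C2 and OE3, the overexpression mean was higher by 12.5 points for replication and 3.70 points for mitotic genes, and equal for G1/S genes.

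**Figure D2:**
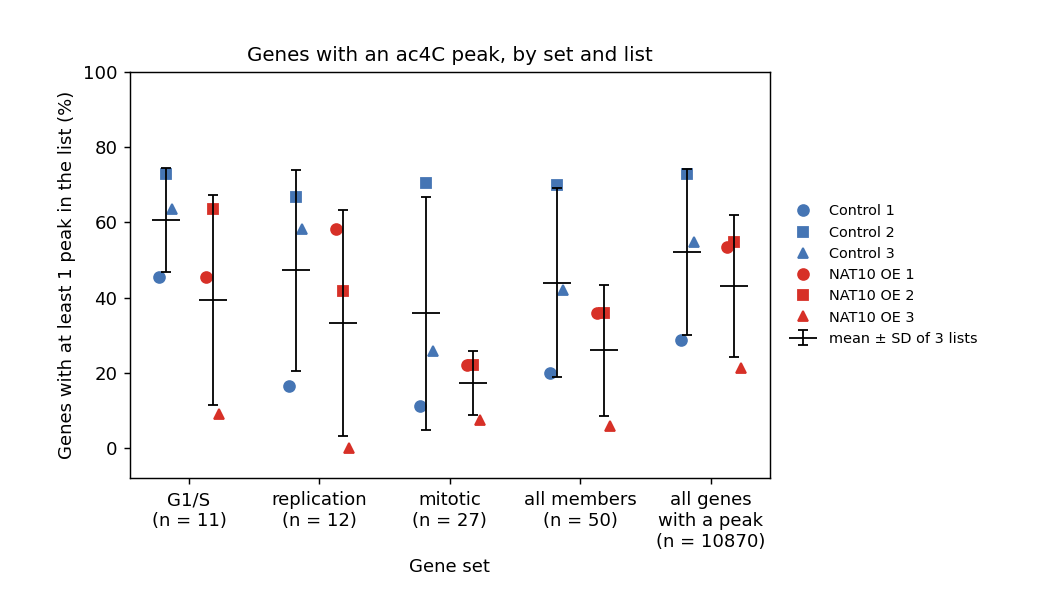
Percent of genes with at least 1 peak in each list (points), with the mean and SD over 3 lists (bars), for the functional groups, the 50 genes together and all genes with a peak in any list. Mitotic genes reach 70.4% in C2 and stay at or below 25.9% in the other lists.

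Of the 37 genes with a peak, 24 were called in more lists of the control group, 2 in more lists of the overexpression group and 11 in the same number of both. Over all genes with a peak, 46.3% lay on the control side and 25.6% on the overexpression side. Among the functional groups, 5 of 9 G1/S, 5 of 9 replication and 14 of 19 mitotic genes were in more control lists. A gene with a peak in C2 alone is on the control side by definition. Such genes make up 7 of the 14 mitotic genes, and 1 of the 5 in each other functional group. The mitotic count therefore shows no lean of its own beyond the longest list. The 2 genes in more overexpression lists, named after their values were seen, were CCND1 and RRM1. These counts hung on single lists, with shares of lists compared where the groups differed in size. Genes on the overexpression side numbered 3, 11 and 7 without C1, C2 or C3 in turn, and 6, 4 and 10 without OE1, OE2 or OE3. The 11 genes without C2 were of 28 then with a peak. Over all genes the share on that side moved with the same lists, from 25.2% without C1 to 48.8% without C2. The swing is therefore not particular to the cell cycle genes. Leaving out both the longest and the shortest list was an alternative chosen after seeing the data. Of 26 genes then with a peak, 5 were on the control side and 9 on the overexpression side. Over all genes the shares were 20.9% and 44.4%. The median difference in peaks, overexpression minus control, was −0.33 per gene for the 37 genes and −0.33 for all genes.

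No gene of the list had peak numbers that separated the groups. Over all genes, 1.39% had more peaks in every control list than in any overexpression list and 0.386% the reverse, and 0 of the 37 did either. A peak in 3 control and 0 overexpression lists was found for 1.09% of all genes and the reverse for 0.267%, and again for 0 of the 37. The number of peaks on each gene was tested between groups by exact permutation of the 6 lists (20 splits, two-sided), and p-values were adjusted by Benjamini-Hochberg over all 10870 genes. The smallest p this test allows is 0.1, so the share called at an adjusted p of 0.05 was 0.0% by construction, with 0 genes at an unadjusted p under 0.05. The lowest exact permutation p among the cell cycle genes was 0.3 and every adjusted p was 1. Peak numbers are not scaled to transcript length, so they are compared between lists of 1 gene and not between genes.

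E2F1, the transcription factor that turns on S-phase genes, was the cell cycle gene with a peak in all 6 lists, a pattern shared by 6.23% of all genes with a peak. The gene (identifier 1869) lies on chromosome 20 from 33675477 to 33686385 (GRCh38). Its recurring peak runs from 33686004 to 33686385 in C3 and OE1 and OE3, and reaches 33686404 in OE2, 19 bases beyond the annotated gene start. The authors' fold enrichment at this position was 24.0, 6.02 and 12.5 in C1, C2 and C3 and 24.6, 38.4 and 17.8 in OE1, OE2 and OE3. OE2 is the highest and C2 the lowest, and the groups overlap because C1 lies above OE3. The authors' false discovery rate of this peak was 44.46% in C2 and 100% in each other list. Within their own lists, 97.9%, 41.8% and 89.0% of control peaks and 98.7%, 99.8% and 90.6% of overexpression peaks had a lower fold. E2F1 had 1, 1 and 1 peaks in the control lists and 2, 1 and 2 in OE1, OE2 and OE3.

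Because the E2F1 peak ends at the gene start, peaks there were counted, after that peak had been seen, on every gene with an entry in the RefSeq promoter table (GRCh38.p14), which spans 250 bases before to 50 after each start and holds 38 of the 50 genes. Of 132 cell cycle peaks on such genes, 32 (24.2%) reached this window, against 12.2% of 50129 peaks over all genes. By list, with E2F1 counted in each, the shares were 33.3%, 16% and 30.4% against 23.7%, 8.09% and 17.4% in C1, C2 and C3 and 30.4%, 23.8% and 33.3% against 10.7%, 11.9% and 9.76% in OE1, OE2 and OE3. Without E2F1, 26 of 124 peaks (21.0%) reached the window. The shares were then 27.3%, 14.3% and 27.3% in C1, C2 and C3 and 28.6% in OE1 and 20% (4 of 20 peaks) in OE2, above those of all genes in these 5 lists, and 0 of 1 peak in OE3. This difference was not tested. By gene, 14 of 29 cell cycle genes with a peak and an entry had one in the window (48.3%), E2F1 among them, against 33.9% of all such genes. E2F1 reached it in 6 lists, MKI67 and TYMS in 4, CDT1 in 3, and CCNA2, CDC6, CDK6, MCM3 and PRC1 in 2. The start sequences of the 4 genes that reached the window in at least 3 lists are given here from 250 bases before to 30 after the start, 5′ to 3′ on the gene's strand.
E2F1: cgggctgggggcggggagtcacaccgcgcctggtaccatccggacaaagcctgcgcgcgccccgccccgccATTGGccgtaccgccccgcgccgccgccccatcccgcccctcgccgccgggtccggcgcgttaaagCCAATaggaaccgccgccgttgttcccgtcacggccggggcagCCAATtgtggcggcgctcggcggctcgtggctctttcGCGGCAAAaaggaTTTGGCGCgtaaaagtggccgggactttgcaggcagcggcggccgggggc
MKI67: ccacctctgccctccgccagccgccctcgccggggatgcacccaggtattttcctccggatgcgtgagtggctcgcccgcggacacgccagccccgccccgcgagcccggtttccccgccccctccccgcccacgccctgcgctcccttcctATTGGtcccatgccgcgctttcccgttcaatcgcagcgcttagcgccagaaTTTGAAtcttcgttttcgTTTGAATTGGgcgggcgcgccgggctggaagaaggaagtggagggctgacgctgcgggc
TYMS: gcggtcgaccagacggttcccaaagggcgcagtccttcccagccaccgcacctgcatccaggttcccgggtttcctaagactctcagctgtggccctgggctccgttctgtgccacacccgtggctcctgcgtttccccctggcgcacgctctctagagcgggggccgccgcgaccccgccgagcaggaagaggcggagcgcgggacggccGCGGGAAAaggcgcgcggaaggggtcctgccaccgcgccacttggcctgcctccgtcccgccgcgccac
CDT1: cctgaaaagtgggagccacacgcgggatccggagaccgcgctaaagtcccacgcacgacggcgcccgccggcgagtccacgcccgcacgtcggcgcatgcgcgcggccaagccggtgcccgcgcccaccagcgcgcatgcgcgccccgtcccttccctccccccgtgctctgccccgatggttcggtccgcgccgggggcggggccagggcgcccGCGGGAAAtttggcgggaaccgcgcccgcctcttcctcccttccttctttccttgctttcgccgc
The windows are E2F1 at chr20:33686356-33686635 (minus strand), MKI67 at chr10:128126394-128126673 (minus strand), TYMS at chr18:657403-657682 (plus strand) and CDT1 at chr16:88803539-88803818 (plus strand). Capitals mark matches, on either strand, to an E2F site (TTTCCCGC, TTTCGCGC, TTTGCCGC or TTTGGCGC), a cell cycle genes homology region (TTTGAA or TTCGAA) or a CCAAT box (CCAAT), and in MKI67 a homology region and a reversed CCAAT share 1 base. E2F1 holds 2 E2F matches, at −33 to −26 and −20 to −13 from the start, and 3 CCAAT matches, while TYMS and CDT1 hold 1 E2F match each, at −39 to −32 and −35 to −28. All marked matches lie before the annotated start, but some lie under called peaks. Whether those bases are part of the acetylated RNA was not tested. The E2F1 peak reaches no further than −19, short of its CCAAT matches and of its E2F match at −33 to −26. At its farthest, in OE2, it overlaps most of the E2F match at −20 to −13. The TYMS and CDT1 peaks begin before the start, at −49 and −497 at the farthest. The TYMS peak covers its E2F match in C1, OE1 and OE2 and part of it in C2. The CDT1 peak covers its E2F match in C2, C3 and OE1. The MKI67 peak begins downstream of the printed bases, within the 50 bases after the start, and runs into the gene. MKI67 holds 2 homology region and 2 CCAAT matches and no E2F match to these letters. Over 280-base windows, an E2F match was found in 3 of 7 G1/S, 8 of 10 replication and 3 of 21 mitotic genes and in 3.15% of 27305 genes. A homology region match was found in 1 of 7, 2 of 10 and 14 of 21, and in 15.8% of all. A CCAAT match was found in 3 of 7, 7 of 10 and 16 of 21, and in 34.7% of all. GC content was 73.2%, 68.2%, 71.8% and 74.3% in the windows of E2F1, MKI67, TYMS and CDT1, against a median of 64.5% for the cell cycle genes and 58.2% for all genes.

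**Figure D3:**
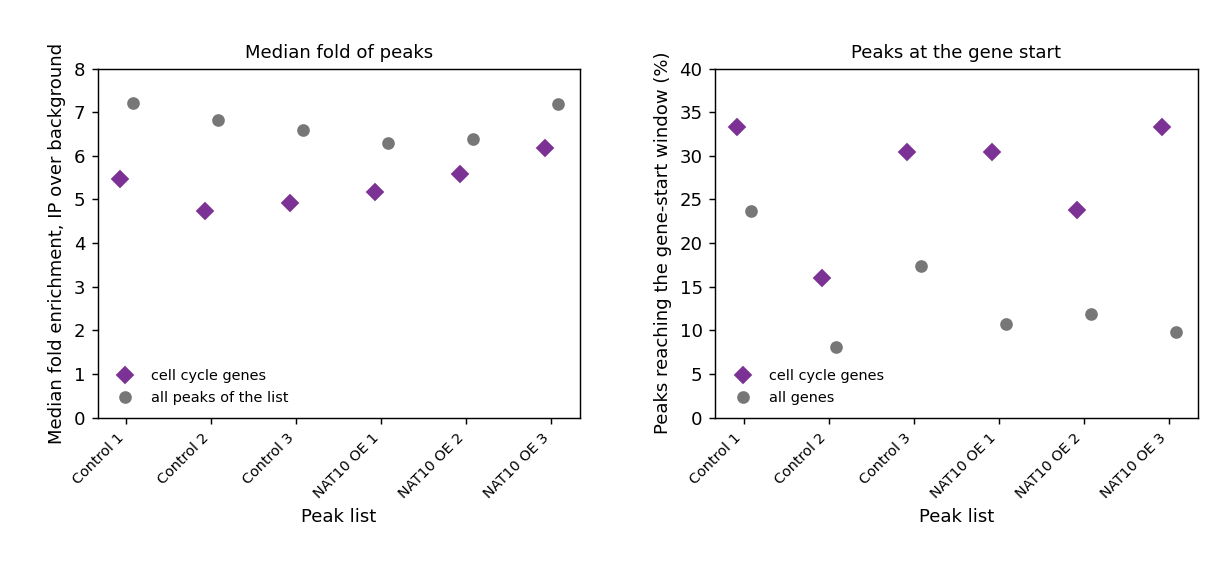
Median fold enrichment of peaks (left) and percent of peaks reaching the window from 250 bases before to 50 after the gene start (right) in each list, for the cell cycle genes and for all genes. In every list the cell cycle genes have the lower median fold, which rests on 5 peaks in OE3. The right panel counts E2F1, without which OE3 has 0 of 1 peak at the gene start.

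The other G1/S genes with recurring peaks encode cyclins, a cyclin-dependent kinase, a phosphatase that activates such kinases and a further E2F factor. CCND3, the cyclin D3 gene, had 1, 2 and 1 peaks in C1, C2 and C3 and 2, 1 and 0 in OE1, OE2 and OE3. A position on chromosome 6 between 41940979 and 41941848 held a CCND3 peak in each list except OE3. The folds were 5.46, 13.0 and 6.45 in control and 3.85 and 7.03 in OE1 and OE2. The OE2 peak ends at 41941519 and the peaks of the other lists start at 41941452, so it shares only a small part of its length with them. CCNE2, the cyclin E2 gene, had 0, 1 and 2 peaks in control and 1, 1 and 0 in overexpression, with a 25-base peak of fold 19.5 in C2. CCND1, the cyclin D1 gene, shared 1 position, at 69641087 to 69641511 on chromosome 11, between C2 and OE1 and OE2, with folds of 4.74, 4.04 and 4.56. CDK6, the cyclin D kinase, had 1, 3 and 1 peaks in the control lists and 0, 3 and 0 in OE1, OE2 and OE3. Its recurring peak had identical ends in 4 lists, at 92833091 to 92833690 on chromosome 7, with folds of 8.64, 4.94 and 12.01 in control and 5.08 in OE2. A further CDK6 position near the gene start, called in C2 and OE2 with folds of 8.56 and 12.38, lies where RefSeq also places CDK6-AS1. Thus every control list and 1 overexpression list called CDK6.

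CDC25A, the phosphatase that activates CDK2 at the entry to S phase, followed the same lists as CDK6. It had 1, 3 and 1 peaks in control and 0, 2 and 0 in OE1, OE2 and OE3. The recurring CDC25A position, between 48187778 and 48188356 on chromosome 3, had folds of 8.48, 13.1 and 7.99 in control and 7.22 in OE2. The highest fold of any cell cycle peak, 39.3, belonged to a 37-base CDC25A peak found in C2 alone. E2F3, a second activator E2F, had 2, 1 and 1 peaks in control and 1, 0 and 0 in overexpression, and its 2 recurring positions were each shared by 2 control lists. With 3 control lists and 1 overexpression list each, CDK6, CDC25A and E2F3 differed by 2 lists, and their exact permutation p-values for peak numbers were 0.6, 0.5 and 0.3 (adjusted p = 1 for each over all genes). CCNE1 had a peak in C3 and 2 in OE2, at separate positions, and CCND2 had 1, in C2. CDK2 and CDK4, the kinases of cyclins E and D, had none.

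The replication genes with a peak were 4 subunits of the MCM helicase, which unwinds DNA at the fork, the loading factor genes CDT1 and CDC6, and the nucleotide synthesis genes TYMS, RRM1 and RRM2. MCM3 had 2, 2 and 3 peaks in C1, C2 and C3 and 4, 2 and 0 in OE1, OE2 and OE3. A pair of MCM3 peaks, at 52267865 to 52267968 and 52269086 to 52269226 on chromosome 6, had the same ends in 5 lists. The first had folds of 7.34, 5.47 and 3.74 in control and 7.60 and 6.71 in OE1 and OE2, and the second 5.26, 8.0 and 6.30 in control and 5.65 and 6.15 in overexpression. At the second position both overexpression values lie inside the control range. MCM2 had 0, 4 and 1 peaks in control and 2, 1 and 0 in overexpression, and MCM5 had 0, 3 and 2 against 1, 1 and 0. An MCM2 position at 127599102 to 127599547 on chromosome 3 was called in C2, OE1 and OE2, with folds of 5.30, 6.46 and 7.38. The recurring MCM5 peaks had low folds, 3.01 in C3 and 3.38 in OE1 at the first position and 4.16 in C2 and 3.66 in C3 at the second. MCM6 was called in C2 and C3 and OE1, each at a separate position, while MCM4 and MCM7 had no peak.

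The loading factor genes CDT1 and CDC6 differed in the lists that called them. CDT1 had 0, 3 and 1 peaks in control and 1, 1 and 0 in overexpression, and CDC6 had 0, 2 and 1 against 0, 0 and 0. The CDT1 peak at the gene start had folds of 6.63 in C2, 3.06 in C3 and 4.14 in OE1. The CDC6 peaks had folds of 4.17, 4.03 and 3.23, and the exact permutation p for CDC6 was 0.4 (adjusted p = 1). TYMS, the thymidylate synthase gene, had 2, 1 and 1 peaks in control and 1, 3 and 0 in OE1, OE2 and OE3. Its peak at the gene start, between 657604 and 657947 on chromosome 18, had folds of 5.04 and 6.85 in C1 and C2 and 5.65 and 5.94 in OE1 and OE2. RefSeq also places TYMSOS there, and since the lists give no strand the 2 genes cannot be told apart at this position. Of the ribonucleotide reductase genes, RRM1 had 1 peak, in OE1, and RRM2 had 1, in C2. PCNA, the sliding clamp of the replication fork, had none.

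Of the mitotic genes, 3 of 19 were called in 4 lists or more, a breadth reached by 35.3% of all genes with a peak. TPX2, which activates Aurora A on the spindle, had 1, 1 and 1 peaks in control and 2, 2 and 0 in OE1, OE2 and OE3. Its peak at 31798365 to 31798552 on chromosome 20 had the same ends in 5 lists, with folds of 3.68, 4.85 and 6.93 in control and 5.67 and 4.75 in overexpression. MKI67, the gene of the proliferation antigen Ki-67, had 1, 1 and 3 peaks in control and 2, 1 and 0 in overexpression. The MKI67 peak at the gene start, 128126099 to 128126385 on chromosome 10, had the same ends in 4 lists, with folds of 5.36 and 6.80 in C1 and C3 and 11.1 and 6.83 in OE1 and OE2. In C3, MKI67 also carried the longest peak of that list, 6845 bases from 128102579 to 128109423, at a fold of 2.69. BUB1B, a spindle checkpoint kinase, had 1, 5 and 0 peaks in control and 2, 1 and 0 in overexpression, at 7 positions of which 2 were seen in 2 lists.

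The remaining mitotic genes were called in 3 lists or fewer. CENPA, the histone of the centromere, had 0, 2 and 1 peaks in control and 2, 0 and 0 in overexpression, with folds of 18.0 and 9.19 in C2 and C3 and 5.08 in OE1 at its first position. CENPE, a kinetochore motor, had 1 peak in C2, at a fold of 15.97, and 1 elsewhere on the gene in OE2, at 3.75. CDC25C, the phosphatase that activates CDK1 for mitosis, had 0, 3 and 2 peaks in control and 0, 0 and 0 in overexpression, at 5 separate positions (exact permutation p = 0.4, adjusted p = 1). CDC25B, by contrast, shared 1 position between C2 and C3 and OE2, with folds of 5.75, 10.1 and 4.50. The 7 genes BIRC5, BUB1, BUB3, CCNB1, ECT2, NUSAP1 and TOP2A, named after their values were seen, had peaks in C2 alone, with folds of 2.29 to 5.02. With CCND2 and RRM2 they make 9 genes called in that list alone, 24.3% of the 37, against 12.7% of all genes with a peak. CCNA2, the cyclin of S phase and G2, had 0, 2 and 0 peaks in control and 0, 1 and 0 in overexpression. PRC1, which bundles spindle microtubules, had 0, 2 and 1 against 1, 0 and 0, and CENPF had 0, 1 and 1 against 1, 0 and 0. TTK and ASPM had peaks in C2 and OE3, at different positions. ANLN, AURKA, AURKB, CCNB2, CDC20, CDK1, PLK1 and UBE2C had no peak in any list.

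**Figure D4:**
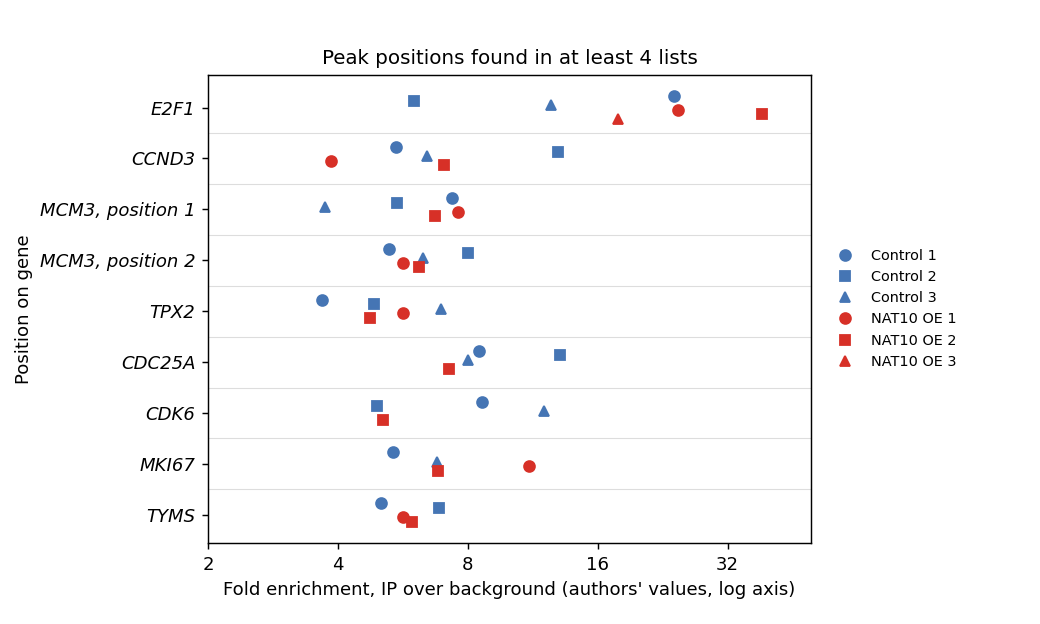
Authors' fold enrichment (log axis) at the 9 positions on cell cycle genes that at least 4 lists called, with 1 point per list that called the position. OE3 called E2F1 alone among them, and E2F1 reaches 38.4 in OE2.

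Peaks of cell cycle genes were of lower fold than the typical peak of their list. The median fold was 5.46, 4.75 and 4.91 in C1, C2 and C3 and 5.17, 5.58 and 6.19 in OE1, OE2 and OE3, against 7.22, 6.82 and 6.59 and 6.30, 6.39 and 7.20 over all peaks. The median of the cell cycle genes lay below that of the list in all 6, but it rests on 13 peaks in C1 and on 5 peaks of 3 genes in OE3. Fold enrichments are the authors' values within each list, and this difference was not tested.

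The 162 peaks fell at 98 positions, counting peaks that share at least 1 base as 1 position. A position was found in at least 2 lists in 32.7% of cases and in at least 4 lists in 9.18%, against 32.5% and 7.47% of 38634 positions over all genes, so positions on cell cycle genes recurred about as often as others. Of the 98, 26 (26.5%) were found in both groups, 49 (50%) in control lists only and 23 (23.5%) in overexpression lists only, against 25.0%, 43.9% and 31.2% over all genes. C2 alone held 36 of the 98 (36.7%), against 29.1% over all genes. No position was found in all lists of 1 group and none of the other, which was the case for 0.575% of positions on the control side and 0.163% on the overexpression side over all genes, so that 0 of 98 is near that share. Peaks that overlapped one of another list numbered 13 of 13 in C1, 26 of 62 (41.9%) in C2 and 21 of 28 (75.0%) in C3, against 85.5%, 41.6% and 68.6% over all genes. They numbered 16 of 28 (57.1%) in OE1, 19 of 26 (73.1%) in OE2 and 1 of 5, that of E2F1, in OE3, against 60.0%, 62.8% and 53.5%. Another RefSeq gene lies over 5 of the 32 recurring positions.

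Of 102 further cell cycle genes, 86 had a peak, with 46 (53.5%) on the control side and 13 (15.1%) on the overexpression side, against 46.3% and 25.6% of all genes. By functional group, 4 and 3 of 9 inhibitor and pocket protein genes lay on the control and the overexpression side, 7 and 1 of 13 E2F, DREAM and FOXM1 regulators, and 10 and 5 of 21 origin and fork genes. The counts were 5 and 1 of 9 for checkpoint kinases and CDK1 control, 7 and 2 of 12 for the anaphase-promoting complex and separase, and 13 and 1 of 22 for kinetochore, cohesin and condensin genes. None had peaks in 3 lists of 1 group and 0 of the other, a pattern of 1.09% of all genes on the control and 0.267% on the overexpression side. Peaks in all 6 lists were found on 5 genes, MYBL2, CCNF, FZR1, MAD1L1 and STAG1, which is 5.81% of the 86 and near the 6.23% of all genes. MYBL2, the B-Myb transcription factor of late cell cycle genes, had 2, 6 and 5 peaks in control and 4, 5 and 2 in OE1, OE2 and OE3. MAD1L1, of the spindle checkpoint, had 10, 12 and 15 against 13, 16 and 6. FZR1, an activator of the anaphase-promoting complex, had 2, 4 and 2 against 4, 2 and 5, and for these 3 genes the groups overlap.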

How the data were processed

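The tools named in the submitters' processing notes are FastQC, HISAT2 2.0.4 and cutadapt 1.9.3, and the build is GRCh38. The deposited data are 6 lists of peaks on mRNA, called separately for each replicate. Peak names carry MACS as the caller, without a version. The deposited score, per the file headers, is −10 times log10 of the authors' p-value (lowest 50). The authors' fold enrichment is a linear ratio (lowest 2). The deposited false discovery rate was read as percent because its values reach 100. The 6 columns that repeat the score were not used. Empty lines, 3 in control replicate 2 and 2 in overexpression replicate 2, were skipped. Starts were raised by 1 so that coordinates count from 1. Depth is unknown.

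Peaks were counted per gene symbol and list with Python 3.11.15, pandas 2.3.3 and numpy 2.4.6. The permutation test was tested on simulated data. Same-numbered lists deviated from their group means with correlations of −0.29, 0.18 and −0.08 over genes. The differently numbered C1 and OE3, the 2 shortest lists, gave 0.49, so this check cannot show whether lists were paired. Numbers were not taken as pairs. Genes and gene lists were chosen with earlier results of these data known. Members were described in full if they had a peak in at least 4 lists, differed by 2 or more lists between groups or had 1 of the 5 highest folds. Related genes were named if they had peaks in all 6 lists or in 3 lists against 0. Alternatives were a fold of at least 4, a score of at least 100, the 3105 highest-scoring peaks of each list, genes in at least 2 lists, other gene matching and leaving out lists.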

Additional observations from a re-analysis of the deposited data

How the results depend on the processing

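Genes in more control lists numbered 24 of 37 (46.3% of all genes) and 10 of 16 with lists trimmed to equal length (42.2%). They numbered 15 of 27 among genes called in 2 lists or more (40.3%). With any 1 list left out they numbered 16 to 33 (40.5% to 65.6%). Genes in more overexpression lists numbered 2 of 37 (25.6% of all genes) and 7 of 33 with a fold of at least 4 (25.1%). They numbered 7 of 34 with a score of at least 100 (26.9%) and 4 of 16 with equal length (39.0%). In at least 2 lists it was 1 of 27 (20.3%), and 3 to 11 with 1 list left out (25.2% to 48.8%). Without control replicate 2 and overexpression replicate 3 the counts were 5 and 9 of 26 (20.9% and 44.4% of all genes). Separation of peak numbers, 0 genes in either direction, gave 1 gene (CDC25A) on the control side with equal length, 0 to 3 on the control side and 0 to 1 on the overexpression side with 1 list left out, and 2 (CCND1 and TPX2) on the overexpression side without both lists. With the replicate number as a block, 2 genes, CDC25A and E2F3, had more control peaks in all 3 pairs. Counted by which group had more peaks in more of the pairs, 25 of 37 genes lay on the control side and 3 on the overexpression side. This is another measure than the number of lists with a peak. The block gave 0 calls over all genes (smallest exact p = 0.25). Shares over all genes are not given for separation or pairs in these settings, and separation comes more easily with fewer lists. The genes named for it are therefore not shown to stand out. The difference in percent of genes with a peak, overexpression minus control, (−13.9, −18.5, −21.2 and −18.0 as reported) was −29.2 to 2.78 for replication, −30.9 to −1.23 for mitotic, −33.3 to −6.06 for G1/S and −30.0 to −5.0 for all 50 genes with 1 list left out. It was 12.5, 3.70, 0.0 and 5.0 without both lists. In the same order it was −2.78, −3.70, −12.1 and −5.33 with equal length, −5.56, −11.1, −21.2 and −12.0 with a fold of at least 4, −8.33, −12.3, −9.09 and −10.7 with a score of at least 100, and −13.9, −9.88, −18.2 and −12.7 among genes called in 2 lists or more. Positions in at least 2 lists (32) numbered 21 with equal ends and 21 to 32 with 1 list left out. The difference in mean peaks turned for MCM3 (0.333, fold of at least 4), TPX2 (−0.333, score of at least 100 and equal length) and MCM2 (0.333, equal length). With 1 list left out, it turned without control replicate 2 for CDT1 (−1.33 to 0.167), CENPA (−1.0 to 0.167), MCM2 (−1.5 to 0.5) and BUB1B (−2.0 to 0.5), without control replicate 3 for CCNE2 (−0.833 to 0.167), and without overexpression replicate 3 for CCND3 (−0.833 to 0.167) and MCM3 (−1.33 to 0.667). Without both lists it turned for CCND3, CDK6, CDT1, MCM3 and CENPA (0.5) and MCM2 and BUB1B (1.0), and CDK6 ranged from −1.67 to 0.0 with 1 list left out. Fewer lists and fewer peaks enter these alternatives, and other causes were not tested. Matching by gene identifier changed no count. List length, and with it unknown depth, limits what a missing peak shows.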
